A study of Debaryomyces hansenii with 6 samples.

Results

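Of the 6320 genes on a Debaryomyces hansenii array, 660 had less RNA under salt than before it on every array of a time course. The 81 of these genes that also met a threshold on the mean at each time are described here. They were selected on the log2 ratios of salt over control of all 6 arrays. The mean ratio had to be at or below -0.4 at 0.5 h and at or below -0.5 at both 3 h and 6 h, with no array at or above 0. The values below therefore describe the genes, and no p-value below is independent evidence that they are lower. Of the 81 genes, 73 could be given a locus name and 8 could not.

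The salt groups were cells of D. hansenii collected 0.5 h, 3 h and 6 h after NaCl was added to 2 M, and the control was an aliquot of cells taken at time 0. All cells came from batch cultures in YPD, a rich glucose medium, at 30 °C in early log phase, and no strain name or genetic change is given in the labels. Each time had 2 arrays that set salt RNA against control RNA in different dyes. On replicate 1 salt RNA was labelled with Cy5 and control RNA with Cy3. On replicate 2 the labels were the other way round and the RNAs came from separate biological replicates, so dye and replicate cannot be told apart. The arrays hold only time 0 as untreated cells, so hours in culture and hours in salt cannot be told apart. Ratios are relative to the bulk of the RNA on each array, and less RNA of a gene per cell cannot be told apart from more of all other RNA.

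D. hansenii is a yeast known from sea water, brines and salted foods, and it grows at salt concentrations that stop most yeasts. Yeasts meet high salt by keeping sodium out of the cytosol or storing it, and by making glycerol as a compatible solute, in part through a mitogen-activated protein kinase cascade named for high osmolarity. In Saccharomyces cerevisiae a sudden rise in salt is followed by a drop in transcripts for growth and ribosome production. Neither the array files nor the RefSeq gene table used here says what the proteins of these 81 loci do, so loci are given by name and no role is assigned to any of them.

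At 0.5, 3 and 6 h the median log2 ratio of salt over control across the 81 genes was -0.75, -0.90 and -1.08, where each gene's value is the mean of the 2 arrays. The order of the times depended on the normalization, since with median centring in place of loess the medians were -0.59, -1.16 and -0.82. Over the 5966 genes with a signal that could be tested, the medians were 0.00, -0.01 and 0.00. Single genes reached as low as -1.81 at 0.5 h, -2.30 at 3 h and -2.48 at 6 h. The highest values, -0.40, -0.52 and -0.51, lie just inside the thresholds that chose the genes. Lowest at 0.5 h were 16 genes, 23 were lowest at 3 h and 42 at 6 h. A ratio of -1 or lower, which is a level at least 2-fold below the control's, was reached by 22 genes at 0.5 h, 31 at 3 h and 47 at 6 h. Of all genes tested, 0.704%, 1.24% and 1.63% were that low.

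**Figure D1:**
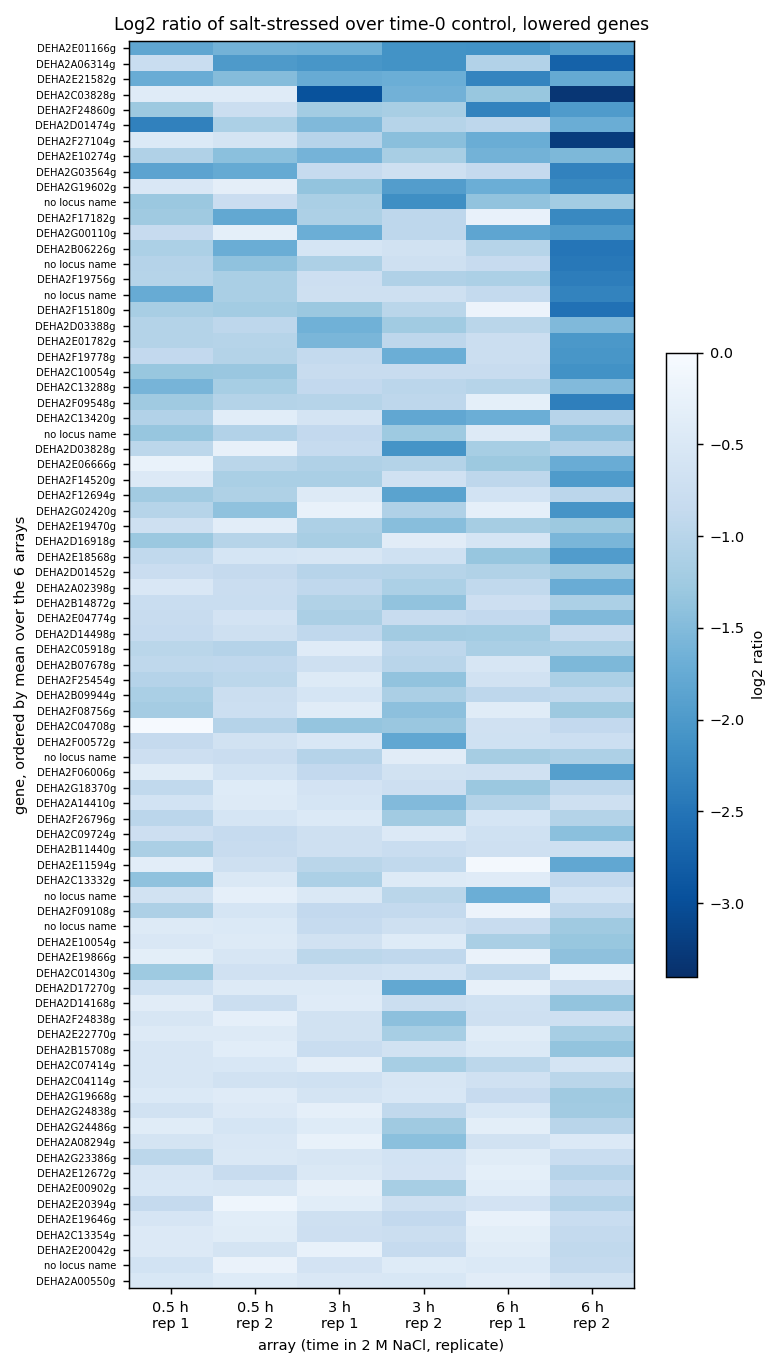
Log2 ratio of salt-stressed over time-0 control RNA for each of the 81 genes (down the page, ordered by mean over the 6 arrays) on each of the 6 arrays (across, by time and replicate). All cells are below 0, and replicate 2 at 6 h has the lowest values, with a median of -1.28.

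Of the 81 genes 3 had ratios below -1 on every array. They were DEHA2E01166g, DEHA2E21582g and DEHA2E10274g, all on chromosome E. DEHA2E10274g is among them only because a spot marked as an outlier was left out. With that spot kept, its ratio on replicate 2 at 6 h lay above -1. DEHA2E01166g had log2 ratios of -1.82 and -1.63 at 0.5 h, -1.65 and -2.10 at 3 h, and -2.12 and -1.92 at 6 h on replicates 1 and 2. It was thus already low at 0.5 h, and no array came above -1.63. Its means were -1.72 ± 0.13, -1.88 ± 0.32 and -2.02 ± 0.14 (SD, n = 2 each), which is 3.30-fold, 3.67-fold and 4.05-fold lower than the control. DEHA2E21582g had -1.72 and -1.48 at 0.5 h, -1.73 and -1.70 at 3 h, and -2.29 and -1.76 at 6 h. The lowest value of this locus was on replicate 1 at 6 h, and its means were -1.60 ± 0.17, -1.71 ± 0.02 and -2.03 ± 0.37 (SD, n = 2 each). In limma's moderated test across all genes, with Benjamini-Hochberg adjustment, DEHA2E01166g had adjusted p-values of 0.0175, 0.00595 and 0.00276 and DEHA2E21582g had 0.0294, 0.00619 and 0.00276 at the 3 times. No other of the 81 genes passed 0.05 at all 3 times in this fit. With the replicate number as a block, DEHA2C13288g, DEHA2E10274g and DEHA2F24860g also passed at all 3 times, each with a limma adjusted p of 0.0492 at 0.5 h. Of 16 other settings of the analysis, the call at 0.5 h was lost in 6 for DEHA2E01166g and in 9 for DEHA2E21582g.

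DEHA2A06314g on chromosome A had the second lowest mean over the 6 arrays. Its ratios were -0.79 and -1.99 at 0.5 h, -2.05 and -2.11 at 3 h, and -1.06 and -2.75 at 6 h. The replicates lay close together at 3 h alone, and replicate 2 was the lower one at the other times. DEHA2E10274g on chromosome E, in contrast, had -1.08 and -1.43 at 0.5 h, -1.61 and -1.16 at 3 h, and -1.63 and -1.55 at 6 h. Its means were -1.25, -1.39 and -1.59, and 6 h held the lowest value of each replicate. One spot of DEHA2E10274g on replicate 2 at 6 h was marked as an outlier by the scanner software and left out of these values. The fall from 3 h to 6 h and the place of 6 h as the lowest in replicate 2 depend on that. With the spot kept, the 2 probes of DEHA2E10274g had means of -1.55 and -1.02 at 6 h, against -1.41 and -1.36 at 3 h. DEHA2F24860g had -1.28 and -0.76 at 0.5 h, -1.22 and -1.17 at 3 h, and -2.30 and -1.99 at 6 h, so both 6 h arrays lay below the 4 earlier ones. Its 6 h mean was 4.42-fold below the control (limma adjusted p = 0.00276). DEHA2D01474g had its lowest value, -2.33, on replicate 1 at 0.5 h, against -1.12 on replicate 2, and lay at -1.52 and -1.02 at 3 h and -0.94 and -1.71 at 6 h. It passed the adjusted threshold of limma's test at no time, with 0.194, 0.0591 and 0.0506.

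In 4 of the lowest loci the ratio was near the threshold at 0.5 h and far below it at 6 h. DEHA2C03828g on chromosome C had -0.41 and -0.40 at 0.5 h, -2.95 and -1.65 at 3 h, and -1.32 and -3.31 at 6 h. Its 0.5 h mean, -0.40, is the member value nearest to that threshold, and it was 0.04 when each array was centred on its median without loess. In limma DEHA2C03828g passed at 3 h (adjusted p = 0.0401) and 6 h (0.0348), and of 16 other settings 7 and 6 lost these calls. DEHA2F27104g on chromosome F had -0.47 and -0.59 at 0.5 h, -1.01 and -1.44 at 3 h, and -1.71 and -3.24 at 6 h, lower at each later time in both replicates. DEHA2G19602g on chromosome G had -0.51 and -0.33, then -1.36 and -1.94, then -1.69 and -2.24, and also stepped down in both. DEHA2G00110g, the first named locus of chromosome G, had -0.83 and -0.31 at 0.5 h, -1.69 and -0.93 at 3 h, and -1.82 and -1.97 at 6 h. The 6 h ratios minus the 0.5 h ratios were -1.95 ± 0.46 for DEHA2F27104g, -1.91 ± 0.66 for DEHA2C03828g, -1.55 ± 0.27 for DEHA2G19602g and -1.33 ± 0.29 for DEHA2G00110g (SE of the limma fit, n = 2 arrays a time). These were the most negative of the named loci, and none had an adjusted p under 0.05 in limma.

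Other loci had their lowest mean at the start. DEHA2G03564g on chromosome G had -1.86 and -1.76 at 0.5 h, the lowest mean of that time, then -0.84 and -0.72 at 3 h, and -0.86 and -2.32 at 6 h. Both 3 h arrays lay above both 0.5 h arrays, and at 6 h the replicates parted. DEHA2F17182g had -1.25 and -1.79, then -1.10 and -0.93, then -0.25 and -2.24, with the widest gap again at 6 h. In replicate 2 DEHA2G03564g and DEHA2F17182g were lowest at 6 h. The most positive differences of 6 h minus 0.5 h were 0.41 for DEHA2C01430g, 0.40 for DEHA2D01474g, 0.36 for DEHA2F12694g and 0.30 for DEHA2C13332g. These are differences of means. In replicate 2 DEHA2D01474g, with -1.71 at 6 h against -1.12 at 0.5 h, and DEHA2C13332g, with -0.89 against -0.50, lay further below the control at 6 h.

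**Figure D2:**
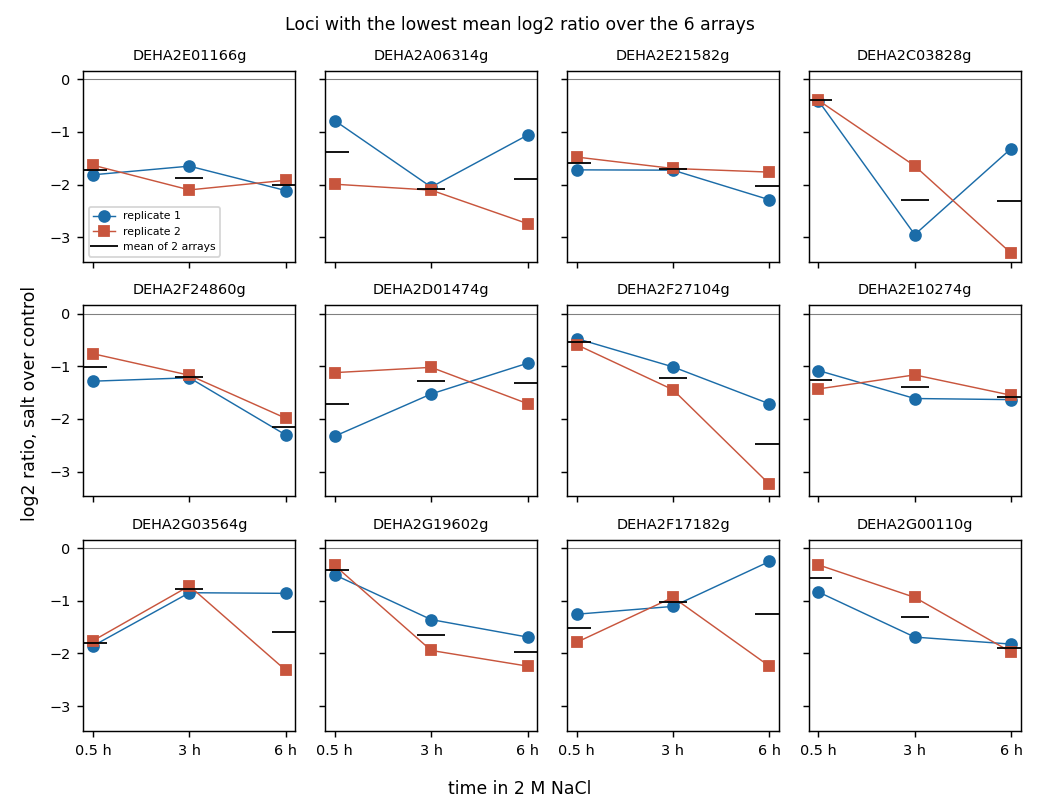
Log2 ratio of salt over control at 0.5, 3 and 6 h for the named loci with the lowest mean over the 6 arrays, with 1 line per replicate and a bar at the mean of the 2 arrays. DEHA2E01166g and DEHA2E21582g stay below -1 throughout, while DEHA2C03828g starts near -0.40 and the replicates of several loci part at 6 h.

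The remaining genes ran in a narrower range. On the mean over the 6 arrays 33 of the 81 genes (40.7%) were at least 2-fold lower in salt than in the control, and among all 5966 genes tested there were 42 such genes (0.704%). At all 3 times 10 of the 81 genes had a mean at or below -1, beside 12 of all 5966 genes tested (0.201%). At the other end, 7 genes kept every array between -1 and 0. The SD over the 6 arrays was under 0.2 for 4 genes, named here after their values were seen. These were DEHA2A00550g, DEHA2D01452g, DEHA2C04114g and DEHA2B11440g. DEHA2A00550g, the most even of them, had -0.53 and -0.42 at 0.5 h, -0.52 and -0.52 at 3 h, and -0.38 and -0.64 at 6 h. DEHA2D01452g lay between -1.23 and -0.78 on the 6 arrays, with means of -0.82, -1.01 and -1.15 at the 3 times. Over the 6 arrays the genes whose pattern was most like that of the median gene of the set were DEHA2G24838g (Pearson r = 0.94), DEHA2B15708g (0.91) and DEHA2F19778g (0.91), and DEHA2C01430g was the least like it (-0.66). These coefficients rest on 6 arrays that may share slides or controls, and the median gene includes them.

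The 2 replicates ran differently over time, and the lower medians at later times were those of replicate 2. At 0.5, 3 and 6 h the median of the 81 genes in replicate 2 was -0.70, -0.97 and -1.28, and in replicate 1 it was -0.84, -0.79 and -0.77. From 0.5 h to 6 h, 76 of the 81 genes were lower at the later time in replicate 2, with a median difference of -0.56. In replicate 1 it was 36 of the 81 genes, with a median difference of 0.07. Of all genes tested, 50.8% in replicate 2 and 46.6% in replicate 1 were lower at 6 h. Both replicates gave a lower value at 6 h than at 0.5 h for 34 of the 81 genes and a higher value for 3. No such counts were made over all genes. From 0.5 h to 3 h, 55 genes in replicate 2 and 35 in replicate 1 were lower at the later time. Of all genes tested, 50.8% in replicate 2 and 48.0% in replicate 1 were lower at 3 h.

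The gap lay mainly in the 6 h arrays. At 6 h replicate 2 was below replicate 1 for 64 of the 81 genes. The median of replicate 2 minus replicate 1 was -0.49 over the 81 genes and -0.01 over all genes tested. At 0.5, 3 and 6 h the median absolute gap between replicates was 0.23, 0.35 and 0.54 over the 81 genes. Over all genes tested it was 0.18, 0.29 and 0.19. The replicates were over 1 apart for 3 genes of the set at 0.5 h, 9 at 3 h and 21 at 6 h, which was not counted over all genes. Of these 21 genes, 20 were lower in replicate 2 and 6 had a ratio above -0.5 in replicate 1. Of these 6, 3 loci chosen after their values were seen, show it. DEHA2F15180g had -1.16 and -1.21 at 0.5 h and -1.29 and -0.97 at 3 h, but -0.20 in replicate 1 and -2.54 in replicate 2 at 6 h. DEHA2F09548g likewise had values between -1.26 and -0.94 on the earlier arrays, and -0.32 and -2.36 at 6 h. DEHA2E11594g had -0.07 and -1.80 at 6 h. The spread of all genes was also wide on replicate 2 at 6 h, with an SD of 0.56 against 0.42 on replicate 1, and on replicate 2 at 3 h it was 0.63 against 0.39. The part of dye, culture or array in these gaps was not tested.

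**Figure D3:**
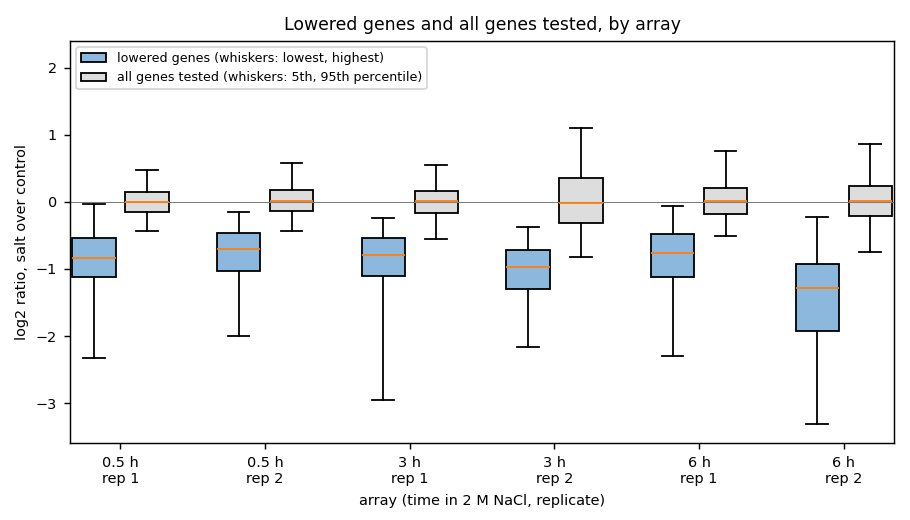
Log2 ratio of salt over control on each of the 6 arrays, for the 81 lowered genes beside all 5966 genes tested. The lowered genes' median is between -0.70 and -0.97 on 5 arrays and -1.28 on replicate 2 at 6 h, while the median of all genes lies between -0.02 and 0.01.

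One limma fit over the 6 arrays gave each time its own coefficient, and a call is an adjusted p under 0.05 over all 5966 genes. At 0.5 h, 2 of the 81 genes were called lower, where 0.0503% of all genes tested were called lower. At 3 h it was 30 genes, beside 2.21% of all genes, and at 6 h 44 genes, beside 2.67% of all genes. The rule used these same ratios, so the counts tell only how many of the chosen genes stood clear of the replicate spread. At no time 30 genes were called, at 1 time 28, at 2 times 21 and at all 3 times 2. The shares of all genes by number of times called were not computed, so these counts describe the set alone. With the replicate number as a block, the counts were 5 genes at 0.5 h (0.117% of all genes), 55 at 3 h (6.03%) and 59 at 6 h (4.89%). Single arrays moved these counts. When replicate 2 of 6 h was left out, 0 genes of the set were called lower at 6 h (0% of all genes), and leaving out replicate 1 of 6 h gave 39 (1.26%). At 3 h, leaving out replicate 2 of that time gave 2 genes (0.134% of all genes) and leaving out replicate 1 gave 34 (6.5%). Leaving out 1 of the 0.5 h arrays, whichever it was, gave 0 genes at 0.5 h (0%), 12 at 3 h (0.386%) and 28 at 6 h (1.07%). At 0.5 h there was 1 gene without either one of the 3 h arrays (0.0335%) and 4 without either one of the 6 h arrays (0.101%). For each count given here, the share of all genes called lower moved in the same direction as the set's count. This did not hold at 3 h without either one of the 6 h arrays, where the set's count rose and the share fell.

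Each later time was also set against each earlier one. The median difference over the 81 genes was -0.11 for 3 h minus 0.5 h, -0.26 for 6 h minus 0.5 h and -0.14 for 6 h minus 3 h. Lower at the later time were 53, 61 and 51 of the 81 genes, beside 49.8%, 48.7% and 48.1% of all genes tested. No gene of the set passed an adjusted p of 0.05 in limma, and the smallest adjusted p-values were 0.278, 0.190 and 0.430. Of all genes tested 0% were called lower at that level in any of these differences, and 0%, 0.0168% and 0% were called higher. At an unadjusted p under 0.05 there were 5 lower and 1 higher for 3 h minus 0.5 h, 11 lower and 0 higher for 6 h minus 0.5 h, and 6 lower and 0 higher for 6 h minus 3 h. Of all genes tested, 4.31%, 3.6% and 4.46% were lower and 4.74%, 5.1% and 4.73% higher at that unadjusted level. A p above the threshold does not show that the times were alike, and with 2 arrays a time the fit had 3 residual degrees of freedom.

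Most of the 81 genes gave bright spots before salt. The median of their log2 control signals, averaged over the arrays, was 9.29, with a range of 6.90 to 12.78, and their salt signals had a median of 8.41, from 6.24 to 11.43. The medians of all genes tested were 7.38 in the salt channel and 7.35 in the control channel. When all genes tested were put into 4 equal classes by control signal, 69 of the 81 genes fell into the brightest class, 9 into the next, 3 into the next and 0 into the dimmest. The control signal is part of the ratio that chose the genes, so a low ratio goes with a brighter control by construction. By salt signal, 46 of the 81 genes lay above the 75th percentile of all genes tested. The offset of 50 added to each signal draws the log ratios of dim spots towards 0 by construction, so brightness also bears on which genes a threshold can choose. The same rule applied to the scanner software's processed signals, with no such offset, chose 275 genes, of which 38 were not among the genes tested. The brightest class held 102 of the other 237, and the dimmer ones held 50, 55 and 30. With the submitters' deposited log2 ratios, the brightest class held 56 of the genes chosen, and the dimmer ones held 6, 0 and 0. The processed signals also lacked the background and normalization steps used here, so the part of the offset alone was not tested. A spot's brightness depends on its probe as well as on the RNA, and no locus is ranked by it here.

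The 2 channels of single loci can be read side by side. DEHA2C03828g had log2 signals of 12.12 and 12.41 in salt at 0.5 h, 9.20 and 11.72 at 3 h, and 11.93 and 9.28 at 6 h. Its control channel read 12.53 and 12.81, 12.15 and 13.36, and 13.24 and 12.59 on the same arrays. The control varied by less than the salt channel, and the low salt signals were those of replicate 1 at 3 h and replicate 2 at 6 h. DEHA2E01166g had salt signals from 6.91 to 8.80 and control signals from 8.82 to 10.91, so the ranges of the 2 channels did not overlap.

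**Figure D4:**
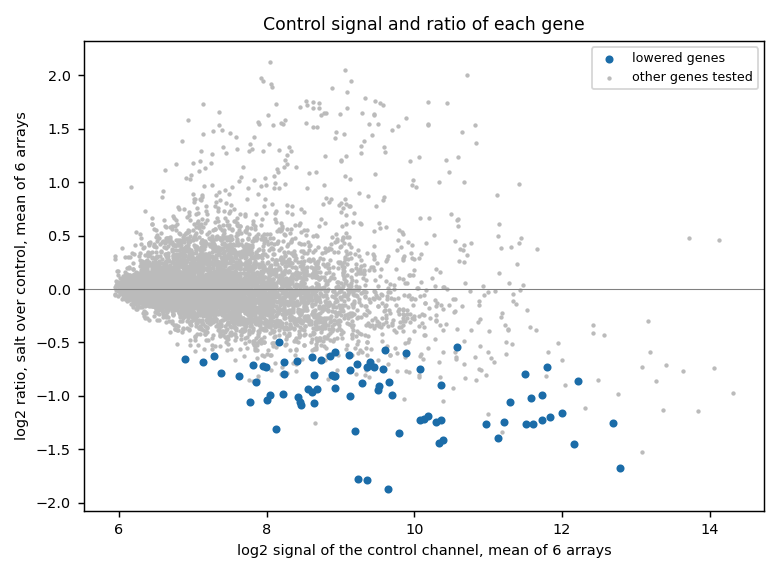
Mean log2 ratio of salt over control against the mean log2 control signal (both over 6 arrays) for the 81 lowered genes and the other genes tested. The lowered genes spread from 6.90 to 12.78 in control signal, and 69 of them are in the brightest of 4 equal classes of genes.

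Each gene was read by 2 probes, and the mean of both chose the set, so their agreement is in part fixed by the rule. With the brighter probe alone, 72 of the 81 genes met the rule and 9 did not. Both probes of all 81 genes had negative means at all 3 times, and for 76 genes both probes were negative on all 6 arrays. The probes' means differed by over 0.5 for 1 gene, DEHA2E06666g, with -1.35 and -0.77. The next largest gaps belonged to DEHA2E00902g (-0.40 and -0.85), DEHA2D03828g (-1.28 and -0.84) and DEHA2B07678g (-0.74 and -1.13), where both probes again pointed the same way. The median gap was 0.0625 in the set and 0.0587 over all genes. A shared run of 20 or more bases between a probe of the set and any other gene's probe was not found, and no spot of the set was saturated. Both channels were well above background on all 6 arrays for 77 of the 81 genes. DEHA2A08294g was not well above background in salt on either 3 h array, and no fold is given for it there. The other 3 were DEHA2C07414g, DEHA2E00902g and 1 gene without a locus name, each dim on at least 1 array.

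The named genes lay on all 7 chromosomes. Chromosome E held 17 of them (2.02% of its tested loci), F 16 (1.63%), C 12 (1.82%), G 9 (1.03%), D 8 (1.21%), B 6 (1.02%) and A 5 (0.962%). Direct neighbours made up 4 pairs in the order of the reference gene table. DEHA2D01474g, described above, lies next to DEHA2D01452g, and DEHA2F24860g next to DEHA2F24838g, which had -0.54 and -0.29 at 0.5 h, -0.65 and -1.42 at 3 h, and -0.69 and -0.71 at 6 h. DEHA2F24838g was thus low on all arrays but did not share the low 6 h values of its neighbour. DEHA2F19756g and DEHA2F19778g on the same chromosome were alike at 6 h, with -1.12 and -2.39 for DEHA2F19756g and -0.77 and -2.05 for DEHA2F19778g on replicates 1 and 2.

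The fourth pair, DEHA2C13332g and DEHA2C13354g, lies in a stretch of 7 consecutive loci on chromosome C that was picked out after its values were seen. It holds 4 of the 81 genes, DEHA2C13288g, DEHA2C13332g, DEHA2C13354g and DEHA2C13420g. DEHA2C13288g had -1.60 and -1.18 at 0.5 h, -0.88 and -0.96 at 3 h, and -1.02 and -1.51 at 6 h. DEHA2C13332g had -1.38 and -0.50, then -1.12 and -0.45, then -0.40 and -0.89, with replicate 1 the lower at 0.5 h and 3 h and replicate 2 the lower at 6 h. DEHA2C13420g had its lowest values, -1.80 and -1.69, on replicate 2 at 3 h and replicate 1 at 6 h. The other loci of the stretch had negative means at 0.5, 3 and 6 h too, -0.81, -0.15 and -0.81 for DEHA2C13310g, -0.26, -0.68 and -0.35 for DEHA2C13376g, and -0.06, -0.57 and -1.49 for DEHA2C13398g. Over all genes tested, 25.6% had 3 negative means. The nearest measured loci on either side did not, with 0.26, -0.03 and 0.28 for DEHA2C13244g and -0.01, 0.31 and 0.46 for DEHA2C13442g.

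Among loci next to one of the 73 named genes, 112 could be tested, and 8 of them (7.14%) were themselves in the set, where 1.43% of all 5120 tested named loci are. Their median ratios were -0.09 at 0.5 h, -0.13 at 3 h and -0.11 at 6 h, against 0.02, 0.00 and 0.01 for 4943 loci that were neither in the set nor next to it. The first group holds 8 genes of the set and the second none by construction. Without those 8, the 104 other neighbours had medians of -0.07, -0.09 and -0.07. Within 20 loci of a chromosome end lay 5 of the 73 genes (6.85%) and 172 of the 5120 loci (3.36%). These 5, named for their position, were DEHA2A14410g, DEHA2F00572g, DEHA2F27104g, DEHA2G00110g and DEHA2G24838g. These shares are descriptions with no test, and whether neighbouring transcripts overlap was not tested.

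**Figure D5:**
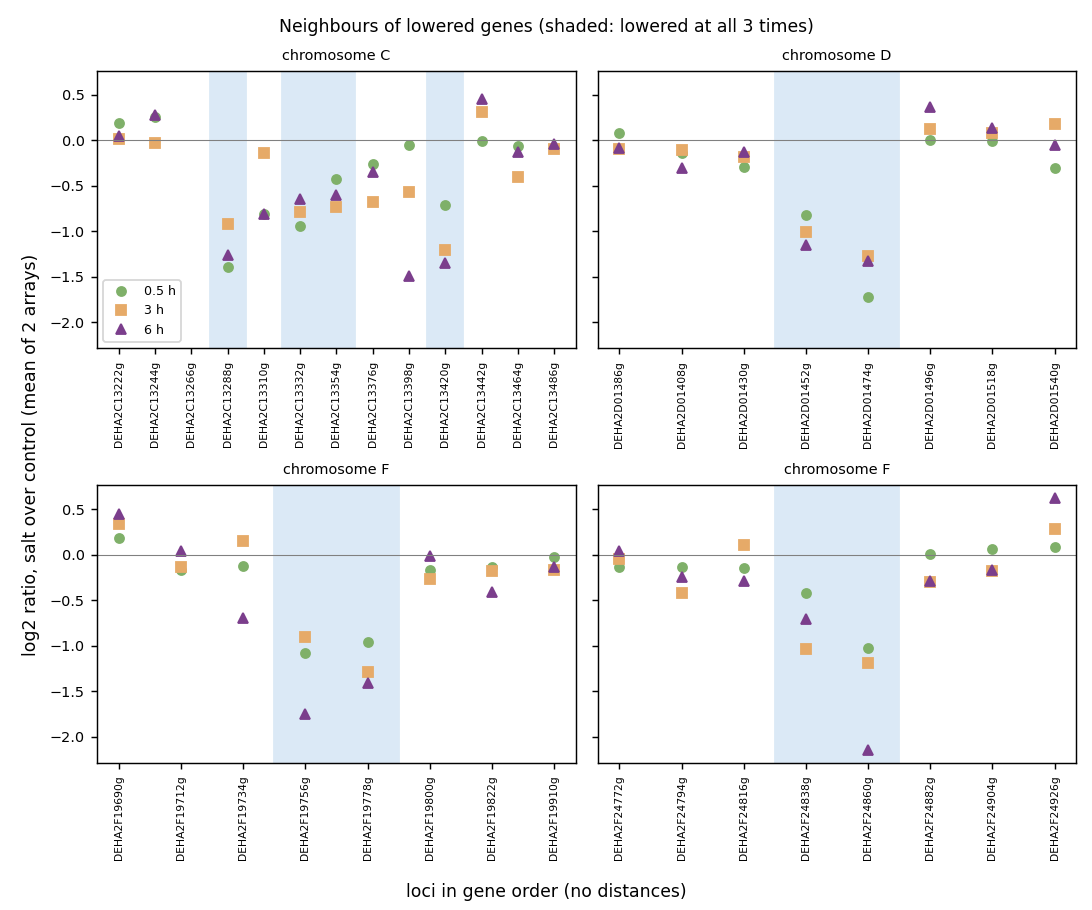
Mean log2 ratio of salt over control at 0.5, 3 and 6 h for loci in gene order around neighbouring lowered genes, 1 panel per stretch, with the lowered genes shaded. On chromosome C, 7 consecutive loci have negative means at all 3 times, and 4 of them are in the set.

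The thresholds cut through a continuous range. Just inside were DEHA2C03828g (-0.40) and DEHA2G19602g (-0.42) at 0.5 h, DEHA2A00550g (-0.52) and DEHA2E10054g (-0.54) at 3 h, and DEHA2A00550g and DEHA2D17270g (-0.51 each) at 6 h. Just outside was DEHA2G20680g with -0.398 at 0.5 h, -0.58 at 3 h and -0.53 at 6 h. DEHA2B15334g had -0.81, -0.77 and -0.87 but a value of 0.0036 on 1 array, and DEHA2E22198g had -1.11, -0.49 and -1.09. Loci just outside thus had means as low as many genes inside. Of the genes on the array, 250 met the 0.5 h threshold, 474 the 3 h one and 373 the 6 h one, 660 were negative on all 6 arrays, 89 met all 3 thresholds, and 81 met everything.

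The arrays differed in quality in 1 respect that touches these values. The added control RNAs of known ratio gave a slope of measured on true log ratio of 0.295 on replicate 1 at 3 h, and of 0.788 to 0.926 on the other arrays, where 1 is full recovery. The 3 h median of the 81 genes was -0.79 on replicate 1 and -0.97 on replicate 2. Probes well above background made up 76.4% to 91.9% in the salt channel and 62.4% to 93.4% in the control channel. A scan gives no count of reads, so the number of arrays sets the precision.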

How the data were processed

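Amplified RNA was measured on 6 Agilent 2-colour arrays, 2 at each of 3 times. The deposited intensity values came from Feature Extraction (version 9.1.3.1 per the file headers), as pixel medians of spot and local background, with processed signals beside them. For the deposited table of log2 ratios the submitters' processing notes name limma, and the sources used here do not give its normalization. Its columns ran in the same direction as the ratios used here (r of 0.979 to 0.991 per array). They lay closer to the ratios without background correction (r of 0.992 to 0.996), so those 2 alternatives are not separate checks. Its column medians lay between -0.0109 and 0.0106, and it served as an alternative.

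In limma 3.58.1 under R 4.3.3, normexp (offset 50) corrected the median signals and loess then normalized each array, with control spots at weight 0 and outlier-marked spots left out. Ratios were turned to salt over control and averaged over a gene's 2 probes. A gene was tested when 2 or more of the 12 channel values of a probe were well above background, 5966 of 6320, which kept all 81. One lmFit and eBayes fit over 6 arrays gave each time a coefficient, with Benjamini-Hochberg adjustment over all genes. Same-numbered arrays deviated together (correlations of 0.21, 0.32 and 0.35 across genes), so counts with the replicate number as a block stand beside the others. Shared cultures or controls among arrays are not given in the labels. The code was tested on simulated data.

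The members, lists and tests were chosen with earlier results of these data known. Loci named are the 12 with the lowest mean, the lowest at each time, the 4 most negative and 4 most positive differences of 6 h minus 0.5 h, those nearest the thresholds, the 4 with the largest probe gaps, those called at all times and direct neighbours, and others are marked as chosen later. RefSeq's gene table (ASM644v2) gave locus names to 5348 genes and their order. The array names no build, so no coordinates are given. Lists of gene functions, protein likeness and promoter motifs were planned and not run, since no description, protein or promoter table was used here. No sequence is printed.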

Additional observations from a re-analysis of the deposited data

How the results depend on the processing

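The set held 81 genes. It held 64 without background correction (59 shared), 56 with median centring in place of loess (41 shared), 62 in the deposited table (57 shared), 89 from the brighter probe (72 shared), 275 from processed signals (78 shared), 45 with all thresholds at -0.6, 170 with all at -0.3, and 60 to 108 when 1 array was left out. All 81 kept negative means at every time under these treatments of the values, except DEHA2C03828g, which was 0.0382 at 0.5 h with median centring.

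The share of all genes called lower stands in brackets after each count of the set's genes. At 0.5 h 2 were called (0.0503%), against 0 without background correction, with median centring or in the deposited table (0.0168% each), 0 with a trended robust variance (0.0503%) and 1 from processed signals (0.0335%). At 3 h 30 were called (2.21%), against 9 without background correction (0.268%), 7 in the deposited table (0.184%) and 0 with the trended robust variance (0%). At 6 h 44 were called (2.67%), against 24 with median centring (0.838%), 29 in the deposited table (1.39%) and 8 with the trended robust variance (0.888%). With dye orientation as a replicate block, which is also the pairing by replicate number, the counts were 5 (0.117%), 55 (6.03%) and 59 (4.89%). Leaving out 1 array gave 0 to 4 genes at 0.5 h (0% to 0.101%), 2 to 34 at 3 h (0.134% to 6.5%) and 0 to 62 at 6 h (0% to 4.58%). The causes were not tested. Differences between times had 0 genes of the set called under every setting run. Function lists, protein likeness and promoter motifs were not run, and no value near background has a firm size.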
